A study of Homo sapiens with 6 samples.

Results

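The genes described here encode secreted ligands of the bone morphogenetic protein (BMP) and growth differentiation factor (GDF) groups and the antagonists that bind them. They were 7 ligand genes (GDF6, GDF15, GDF11, BMP2, BMP4, BMP6 and BMP7) and 3 antagonist genes (GREM1, NOG and CHRD), 10 of the 41497 named entries in the tables. Members were found by gene symbol, and the entry on the primary chromosome was taken for each. They were chosen by the large difference of GDF6 between the treatments in these same libraries and by the known protective role of BMP7 in renal tubules. The GDF6 values below are therefore a description with no test. The stated choice used no value of the other 9 members, although earlier results of these data were known when it was made.

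RNA was measured in HK-2, an immortalised epithelial line from human proximal tubule, labelled wild type. There were 3 libraries labelled control and 3 libraries from cells given TGF-β1, the cytokine used in this field to drive a fibrotic response, all taken at 24 h. Cells of both groups were kept in medium with fetal bovine serum per the labels, while the methods of the study describe TGF-β treatment of these cells without serum. The labels give no dose, and the dose in the methods is stated for TGF-β treatment in general and not for these libraries. Nothing says that the 3 libraries of a group came from separate cultures, so p values measure the spread between these libraries, which may be technical.

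BMPs and most GDFs are dimeric ligands of the TGF-β superfamily. They bind pairs of type I and type II serine/threonine kinase receptors, and BMP receptors then phosphorylate SMAD1, SMAD5 and SMAD9, whereas TGF-β and GDF11 act mainly through SMAD2 and SMAD3. Gremlin, noggin and chordin hold BMP ligands outside the cell and keep them from their receptors. In the kidney, BMP7 is made by tubular and collecting duct cells and is known for opposing TGF-β, and gremlin 1 is known to return in fibrotic kidney. GDF15 is a distant relative of the group and a stress-induced hormone whose receptor, GFRAL, is found in the hindbrain.

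Total counts per library ran from 21.9 to 26.9 megacounts. Of 14860 entries that passed the filter on low counts, 44.3% were called different between the treatments at an adjusted p under 0.05 (edgeR quasi-likelihood F test), 22.2% higher and 22.1% lower with TGF-β1. These are 3294 and 3288 entries, and the balance depends on the scaling, since library sizes from total counts only gave 2134 higher and 4590 lower. In 55.6% of them the 3 values of one treatment all lay above the 3 of the other. Against these shares, 4 of the 9 members other than GDF6 were called, GDF11 and NOG higher and GDF15 and BMP4 lower. BMP2 was tested and not called, and BMP6, BMP7, CHRD and the chromosome 15 entry of GREM1 had too few reads to be tested. BMP4 passed the filter through its control libraries, since 1 of its 3 TGF-β1 libraries exceeded the limit of 0.435 CPM (counts scaled to the size of the library). NOG passed through its TGF-β1 libraries, with 2 of 3 control libraries over the limit. No reading is drawn from the members' share, because 4 of them could not be tested. The cells carried renal and epithelial transcripts. PAX8, GGT1, KRT8, KRT18 and KRT19 were abundant, whereas LRP2 was listed at 0 in all 6 libraries, HNF4A had at most 1 read and CDH1 at most 3. The 12 renal markers summed to 288 to 314 TPM in control libraries and 165 to 185 TPM with TGF-β1. Of 7 tested, 4 were lower, among them PAX8 (log2 fold change −0.73) and GGT1 (−0.58), and 2 were higher, AQP1 (2.10) and CUBN (0.82), both of which passed the filter through their TGF-β1 libraries. Of the 5 epithelial markers, KRT8 (0.65) and KRT18 (0.58) were higher and KRT19 (−1.34) and EPCAM (−1.25) lower. The summed level of 5 endothelial markers was 0.673 to 1.21 TPM (the authors' length-scaled transcript level) in control libraries and 0 to 0.0620 with TGF-β1, where CDH5, PECAM1 and VWF were at 0. The 6 fibroblast markers summed to 72.2 to 86.7 TPM in controls and 58.9 to 63.0 with TGF-β1, with 1 of 3 tested genes called higher (PDGFRB) and 2 lower (LUM and THY1, the latter passing the filter through its control libraries). The 5 leukocyte markers summed to 184 to 199 TPM and 111 to 147 TPM, nearly all of it CD68, with PTPRC at no more than 2 reads. The part of these markers in the results below was not tested. Fewer cells making a transcript and less of it per cell cannot be told apart in bulk RNA.

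GDF6, a ligand known for joint and skull patterning, was chosen for its large difference between the treatments. That it had the largest fold difference among the members that passed the filter is therefore no finding. Its values varied little between the libraries of a group. GDF6 is listed on the minus strand of chromosome 8, at 96142333 to 96160806 of GRCh38, with 2 exon blocks. Its raw counts were 238, 253 and 244 in the control libraries and 2111, 1971 and 1684 in the TGF-β1 libraries. Scaled to library size these were 10.5, 10.3 and 10.4 CPM in control cells and 81.1, 81.5 and 80.4 CPM with TGF-β1. All treated libraries lay far above all control libraries. The means were 10.4 ± 0.105 and 81.0 ± 0.560 CPM (SD, n = 3 each), a log2 fold change of 2.96, or 7.76-fold. This difference was position 85 from the largest rise among the 14860 entries. Neither that position nor the separation of the groups is a finding, since the same difference chose the gene. The nearest tested gene, UQCRB, a subunit of mitochondrial complex III, lies 62141 bases away. Its log2 fold change of 0.19 ± 0.07 (SE) was not called (edgeR, adjusted p = 0.0564).

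GDF15 moved the other way. It is on the plus strand of chromosome 19, at 18382170 to 18389176, with 3 exon blocks. Control libraries had 1454, 1621 and 1331 counts, and TGF-β1 libraries had 326, 232 and 198. Every treated library was under every control library. In CPM the level went from 62.5 ± 5.06 to 10.5 ± 1.73 (SD, n = 3 each), a fall of 2.56 on the log2 scale with an SE of 0.11 (edgeR, adjusted p = 4.9e-08), or 5.91-fold. It stood at position 81 from the largest fall. MIR3189, a microRNA gene inside the GDF15 interval, had 0 to 7 reads per library. Of the neighbouring genes, PGPEP1, a peptidase that removes N-terminal pyroglutamate, also fell, by 1.30 on the log2 scale (SE 0.07, adjusted p = 1.3e-07 by edgeR). SSBP4 on the other side was not called.

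GDF15 is a known target of the integrated stress response, so 11 genes of cell stress responses were read beside it. Of these 9 were tested. ATF3 was lower, CDKN1A was higher, and 7 were not called, where 44.3% of all tested entries were called. ATF3, a stress-induced transcription factor, fell from 17.9 ± 0.793 to 9.51 ± 0.652 CPM (SD, n = 3 each; log2 fold change −0.91). CDKN1A, a cell cycle inhibitor, had a log2 fold change of 0.26. It was no longer called by edgeR with any 1 control library or the first TGF-β1 library left out or with total counts only, nor by DESeq2, and the list held 1 called gene without the first or the second control library. The number called lower depended on the setting, with 3 genes of the list called lower by edgeR with total counts only and at a mean of at least 50 counts. The median over the 9 was 0.02, beside 0.01 over all tested entries. Thus the log2 fold change of GDF15 lay below the lowest value of the list.

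GDF11, a ligand close to myostatin, is on the plus strand of chromosome 12 at 55743122 to 55757264. Its counts were 932, 964 and 967 in control cells and 1202, 1113 and 978 with TGF-β1. In CPM these were 41.3, 39.4 and 41.2 against 46.2, 46.0 and 46.7, with no overlap. The log2 fold change was small, 0.19 ± 0.06 (SE), and was called (edgeR, adjusted p = 0.0175). The call did not hold in every setting. With library sizes set by total counts alone the log2 fold change was 0.08 (adjusted p = 0.271 by edgeR), without the second control library it was 0.17 (adjusted p = 0.0876) and without the third TGF-β1 library 0.18 (adjusted p = 0.0651). On the TPM scale the groups overlapped, with 14.9 to 15.9 in control cells and 15.6 to 16.4 with TGF-β1. SARNP, an mRNA export factor gene on the opposite strand, overlaps GDF11 and had a log2 fold change of 0.15 that was not called. Whether counting used the strand was not given in the sources used here, so reads in the overlap cannot be told apart.

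BMP2, an osteogenic ligand, was expressed in both groups. It is on the plus strand of chromosome 20 at 6767686 to 6780246. Control libraries had 268, 282 and 240 counts and TGF-β1 libraries 332, 319 and 254. The 3 treated values in CPM, 12.1 to 13.2, lay above the control values of 10.2 to 11.9, but the difference was 0.18 ± 0.09 (SE) on the log2 scale and was not called (edgeR, adjusted p = 0.122). TPM values overlapped, at 9.79 to 11.0 and 10.6 to 11.7.

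BMP4, a ligand of mesoderm and ureteric bud development, fell. It is on the minus strand of chromosome 14 at 53949736 to 53956891, with 6 exon blocks. Counts were 32, 43 and 36 in the control libraries and 9, 11 and 9 in the TGF-β1 libraries, without overlap. The mean level went from 1.57 ± 0.173 to 0.410 ± 0.0572 CPM (SD, n = 3 each), a fall of 1.93 on the log2 scale with an SE of 0.24 (edgeR, adjusted p = 8.2e-05), or 3.81-fold. At 9 to 11 counts per treated library the size of the fall is known less well than its direction.

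RefSeq promoter entries (GRCh38.p14) matched 6 of the 10 members: GDF15, GDF11, BMP4, BMP6, GREM1 and CHRD. The stretch before the first of 3 listed BMP4 starts is shown because BMP4 fell and because it holds letters known to be bound by SMAD proteins. It is 220 bases at chr14:53955081-53955300 on the minus strand, and the 30 bases next to the start are left out. All 3 listed starts lie inside the interval given for BMP4, which reaches 53956891 at its 5' end. The stretch is therefore upstream of a listed start and not of the whole counted gene. Capitals mark the SMAD box CAGAC and the GC-rich SMAD1/5 element GGCGCC, each read on both strands.

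BMP4: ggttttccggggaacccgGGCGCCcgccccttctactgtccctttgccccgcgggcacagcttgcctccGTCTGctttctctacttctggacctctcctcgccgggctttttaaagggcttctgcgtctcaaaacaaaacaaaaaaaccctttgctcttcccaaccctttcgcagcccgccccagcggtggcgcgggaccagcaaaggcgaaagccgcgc

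CAGAC was matched once, 181 bases before the start, as its reverse complement GTCTG, and GGCGCC once, 232 bases before it. The second BMP4 start had neither motif before it, and the third had CAGAC at 46 bases and no GGCGCC. Over 35097 promoters, the upstream window of the same kind held CAGAC in 38% and GGCGCC in 16.4%. GDF15 held CAGAC 125 bases before its start and TATAAA, the TATA box, 29 bases before it, and GDF11 held TATAAA at 33 bases. The GDF15 start used there also lies inside its listed interval, which begins at 18382170. TATAAA was in 10.7% of all promoters. The cAMP response element TGACGTCA, in 1.65% of all promoters, was not among these letters in any entry of the 6 members. A match describes the sequence and is not a measured binding site.

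BMP6 and BMP7 were at or near 0. BMP6, known for iron sensing in the liver, had 1, 4 and 3 reads in control cells and 3, 7 and 10 with TGF-β1. That is 8 reads against 20, a ratio of 2.48 with a 95% exact (Clopper-Pearson) interval of 1.05 to 6.50 that covers counting error only. Its groups overlapped, and the exact two-sided permutation test gave p = 0.3, where 0.1 is the smallest p that 3 libraries against 3 can give. TXNDC5, a protein disulfide isomerase gene on the opposite strand, overlaps the end of BMP6. It had 72 to 135 reads in control cells and 152 to 373 with TGF-β1, with a log2 fold change of 1.22 ± 0.53 that was not called (edgeR, adjusted p = 0.138). With the strand setting not given, reads in this overlap cannot be told apart either, and the interval of the BMP6 ratio does not cover that.

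BMP7, on the minus strand of chromosome 20 at 57168753 to 57266641, was listed at 0 in all 6 libraries. Against 3 counts as the limit that a 0 allows, its level in a library was at most 0.143 CPM, or 0.110 TPM. That limit covers counting error only and not how reads were assigned to entries. BMP7 had 1 entry. The tables therefore held no read of BMP7 among 68.2 megacounts of control cells and 74.1 megacounts of treated cells. BMP7-AS1, the antisense gene, was also at 0. A lower level of BMP7 with TGF-β1 was not detectable here, since the control level was already at 0.

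**Figure D1:**
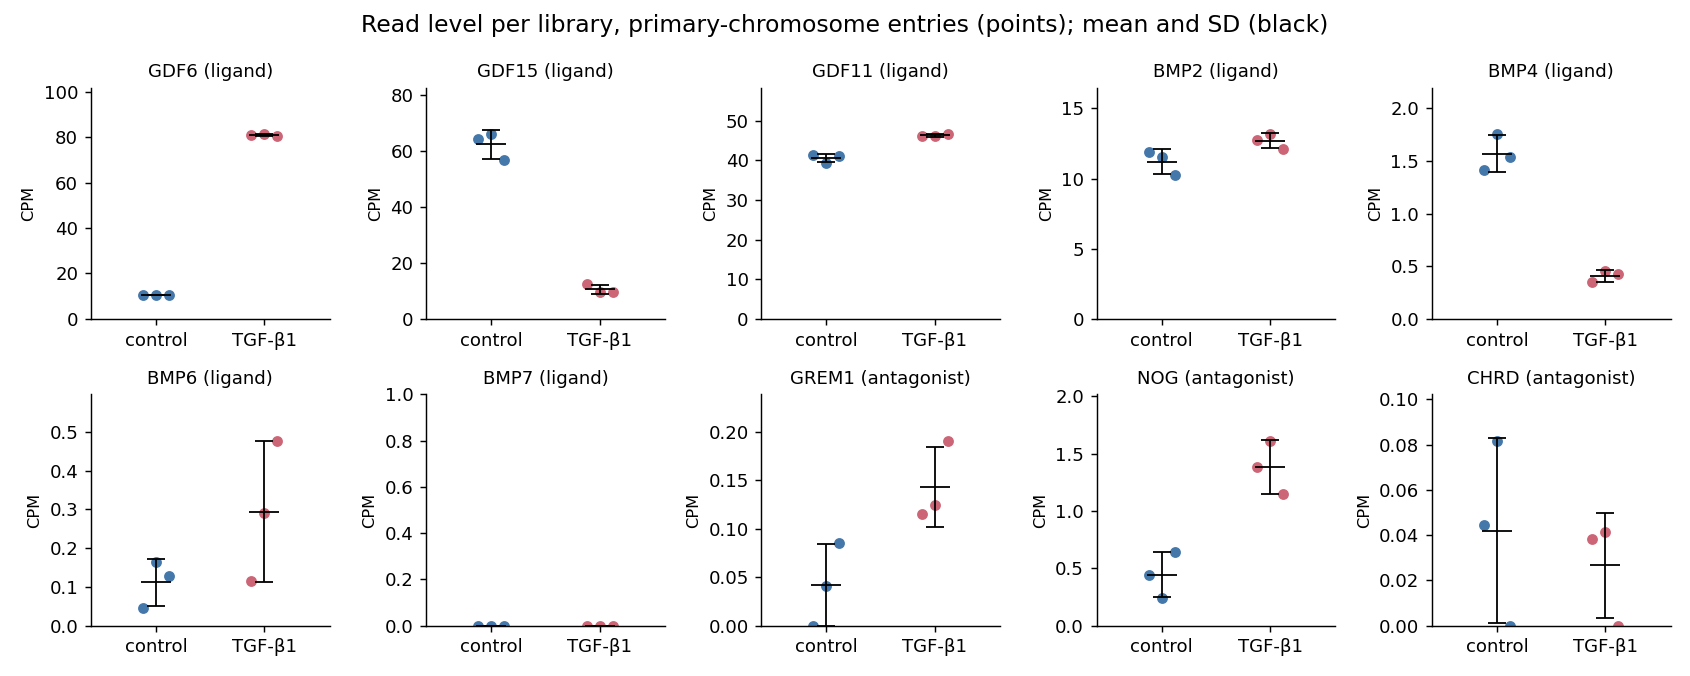
Read level of the 10 members in CPM (vertical axes, each from 0) in the 3 control and 3 TGF-β1 libraries, from the primary-chromosome entries. Points are libraries, and black marks give the mean and SD. GDF6 sits near 10 CPM in control cells and near 81 with TGF-β1, GDF15 and BMP4 are lower with TGF-β1, and BMP7 is at 0 throughout.

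Among the antagonists, NOG rose. Noggin is a single-exon gene on the plus strand of chromosome 17 at 56593699 to 56595611. Counts were 10, 6 and 15 in control cells and 36, 39 and 24 with TGF-β1. All treated libraries lay above all control libraries, although the control values themselves spread widely. The mean went from 0.443 ± 0.197 to 1.38 ± 0.234 CPM (SD, n = 3 each), with a log2 fold change of 1.64 ± 0.32 (edgeR, adjusted p = 0.00176). It passed the filter on low counts through the group in which it is high. Leaving out 1 library at a time moved it from 1.34 to 2.00. The nearest tested gene within 200 kb, C17orf67, lies 196302 bases away and was lower, with a log2 fold change of −0.43.

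GREM1 was counted mostly away from its chromosome. The chromosome 15 entry, at 32718004 to 32745106 on the plus strand, had 0, 1 and 2 reads in control cells and 3, 3 and 4 with TGF-β1. The tables list 3 further GREM1 entries on alternate contigs, the additional versions of some regions that the assembly carries, here called copies A, B and C. Copy A took 93.5% to 96.5% of all reads of the name in every library. It had 219, 248 and 253 reads in control cells and 433, 482 and 374 with TGF-β1. Copy B had 8, 9 and 8 against 25, 24 and 10, and copy C at most 3 reads.

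**Figure D2:**
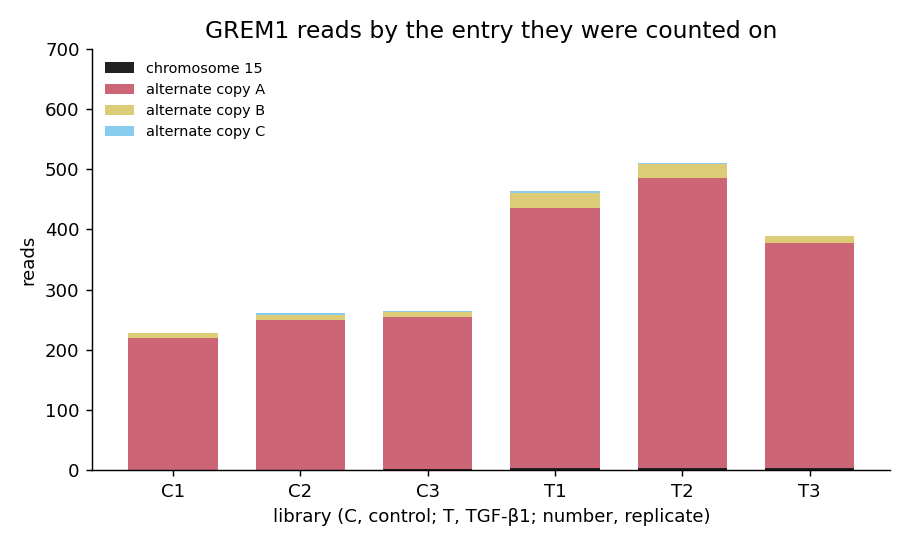
Reads of GREM1 per library (vertical axis, from 0) in the 3 control (C) and 3 TGF-β1 (T) libraries, stacked by the entry that received them. The chromosome 15 entry, at the foot of each bar, holds 0 to 4 reads, while the bars reach 227 to 264 reads in control cells and 389 to 510 with TGF-β1.

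Summed over the 4 entries, GREM1 was at 10.7 ± 0.596 CPM in control cells and 19.1 ± 1.73 CPM with TGF-β1 (SD, n = 3 each), without overlap. The log2 fold change of the sum was 0.85 ± 0.09 (edgeR, adjusted p = 1.6e-05), or 1.80-fold. This sum was an alternative added after seeing the data. On the chromosome 15 entry alone the ratio of 10 reads to 3 was 3.30, with a 95% exact interval of 0.850 to 18.7, and the exact two-sided permutation p was 0.1, the smallest possible. Why reads were given to copy A was not tested. GREM1-AS1, the antisense gene inside GREM1, was at 0 in all libraries. Of the neighbours on chromosome 15, ARHGAP11A had a log2 fold change of 1.39 and was higher, and FMN1, an actin nucleator gene, had −0.94 and was lower. ARHGAP11A had 14 to 22 reads in control cells and 38 to 63 with TGF-β1. Entries of these neighbours on alternate contigs were not looked at, so the calls hold for the chromosome 15 entries only.

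The GREM1 stretch before the first of 2 listed starts is shown because it holds both SMAD motifs more than once. It is 220 bases at chr15:32717754-32717973 on the plus strand, with 79.1% G and C, and capitals mark CAGAC and GGCGCC as before.

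GREM1: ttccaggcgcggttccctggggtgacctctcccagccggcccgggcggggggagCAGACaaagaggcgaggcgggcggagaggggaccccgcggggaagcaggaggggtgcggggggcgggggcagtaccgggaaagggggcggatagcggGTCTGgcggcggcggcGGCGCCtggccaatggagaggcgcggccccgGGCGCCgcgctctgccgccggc

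CAGAC was matched 196 and 99 bases before the start, the second as GTCTG, and GGCGCC 83 and 52 bases before it. The other listed GREM1 start had CAGAC at 121 bases and no GGCGCC. CHRD, by contrast, held 1 GGCGCC, 10 bases before its start. Chordin RNA was barely present, with 1, 2 and 0 reads in control cells and 1, 1 and 0 with TGF-β1. The ratio of 2 reads to 3 was 0.660 with a 95% exact interval of 0.0552 to 5.77, and the exact two-sided permutation p was 0.5.

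Per length, in the deposited TPM, the order of the ligands differed between the treatments. In control cells GDF15 was highest at 121 ± 8.19 TPM, followed by GDF11 at 15.4 ± 0.506, BMP2 at 10.5 ± 0.636, GDF6 at 9.35 ± 0.133 and BMP4 at 2.10 ± 0.241 (SD, n = 3 each). NOG was at 0.772 ± 0.354 TPM. None of these neighbours overlapped. With TGF-β1 GDF6 stood first at 66.9 ± 1.99 TPM, then GDF15 at 18.7 ± 2.53, GDF11 at 16.1 ± 0.484 and BMP2 at 11.0 ± 0.593, again without overlap. NOG, at 2.21 ± 0.398 TPM, was then above BMP4, at 0.506 ± 0.0838. Of the members under 0.1 TPM in control cells, CHRD overlapped with BMP6, with the chromosome 15 entry of GREM1 and with BMP7, while BMP6, at 0.0383 to 0.144 TPM, lay above that GREM1 entry, at 0 to 0.0195, and above BMP7. With its 4 entries summed, GREM1 was at 2.40 ± 0.178 TPM in control cells and 3.97 ± 0.455 with TGF-β1, the highest of the 3 antagonists in both.

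**Figure D3:**
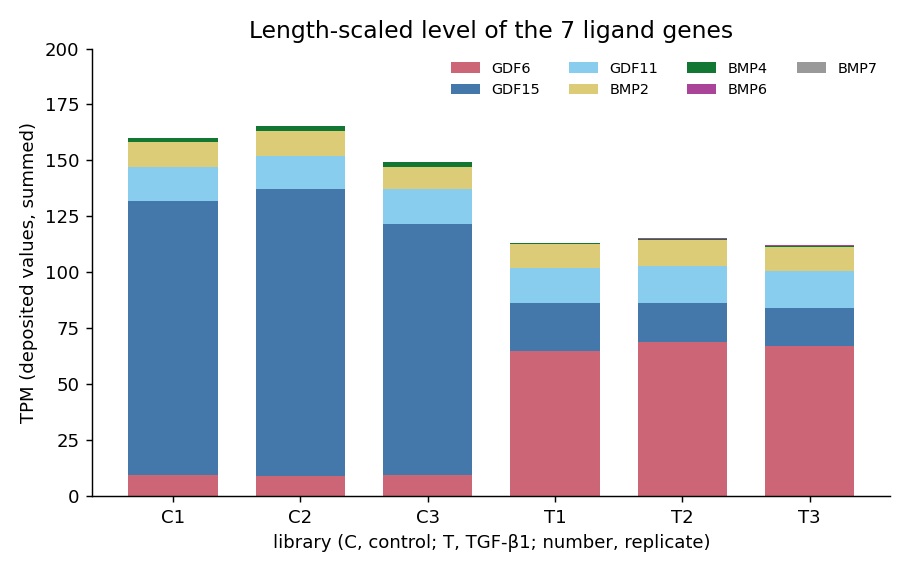
Deposited TPM of the 7 ligand genes (vertical axis, from 0), stacked for each of the 3 control (C) and 3 TGF-β1 (T) libraries. The GDF15 segment makes up most of the control bars, and the GDF6 segment most of the TGF-β1 bars.

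The summed TPM of the 7 ligands was 158 ± 8.22 in control cells and 113 ± 1.56 with TGF-β1 (SD, n = 3 each). GDF15 made up 76.3% ± 1.23 of it in control cells and 16.5% ± 2.26 with TGF-β1. GDF6 made up 5.92% ± 0.398 and 59.0% ± 1.46. Without GDF15 the sum was 37.4 ± 0.0652 and 94.8 ± 3.04 TPM. That sum still holds GDF6, at 9.35 and 66.9 TPM, whose large difference chose the members. GDF11 was at 15.4 and 16.1 TPM and BMP2 at 10.5 and 11.0. The direction of the sum therefore depends on GDF15 and GDF6, and no reading of the ligands as a group is drawn from it. The shares and the sums hold GDF6, whose difference was used in the choice, and carry no test.

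The rest of the family was thinly expressed. Of 14 other BMP and GDF ligands 3 were tested and 5 were at 0 in all libraries. Of the 3 tested, 1 was called, beside 44.3% of all tested entries. BMP8B fell from 2.66 ± 0.144 to 1.10 ± 0.145 CPM (SD, n = 3 each; log2 fold change −1.27 ± 0.18, adjusted p = 0.00023 by edgeR), and BMP8A and GDF7 were not called. BMP8A and BMP8B are near-identical copies, so reads may be split between them.

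Of 17 other antagonists and binding proteins 9 were tested, of which 3 were called higher and 4 lower. Over all tested entries 22.2% were called higher and 22.1% lower. FSTL3, a secreted follistatin-like protein that binds activins and GDFs, rose from 148 ± 11.0 to 303 ± 28.2 CPM (log2 fold change 1.04), and FSTL1 had a log2 fold change of 0.33. CHRDL1, a chordin-like BMP antagonist, fell from 134 ± 3.07 to 83.7 ± 5.03 CPM (−0.68). KCP, a kielin/chordin-like protein known to enhance BMP signaling, fell by 2.02 on the log2 scale. FST, which encodes follistatin, had 26, 28 and 27 reads in control cells and 8, 7 and 4 with TGF-β1, a log2 fold change of −2.09 that was called lower, and it is named here after its values were seen. FST and KCP passed the filter through their control libraries, in which they are high, with 0 and 1 of 3 TGF-β1 libraries over the limit. The list therefore held called genes in both directions, with a median of −0.08.

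Of 15 receptors and co-receptors 11 were tested, of which 5 were higher and 4 lower, beside 22.2% and 22.1% of all tested entries. Among type II receptors, BMPR2 rose from 101 ± 4.97 to 220 ± 25.2 CPM (SD, n = 3 each; log2 fold change 1.12), ACVR2A had 0.59 and was higher, and ACVR2B had −0.47 and was lower. Among type I receptors, BMPR1B (0.93) and ACVR1 (0.83) were higher, ACVRL1, the receptor of endothelial BMP9 signaling, was lower (−1.12), and BMPR1A was not called (0.05). The co-receptor NEO1 was lower (−0.51). GFRAL, the GDF15 receptor, was at 0 in all libraries. The median over the 11 was 0.18.

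All 12 SMADs and inhibitors of BMP signaling were tested, of which 8 were higher and 4 were not called by edgeR. The shares over all tested entries were 22.2% higher and 22.1% lower. SMAD1, SMAD5 and SMAD9, which carry the BMP signal, had log2 fold changes of 0.06, 0.11 and 0.04, none of them called. SMAD7, the inhibitory SMAD that TGF-β itself induces, rose from 18.0 ± 2.31 to 56.1 ± 2.14 CPM (SD, n = 3 each; 1.64). SKIL, a SMAD corepressor, had 1.08. The 8 called genes were inhibitors by their known roles, a kind of gene the list was built to hold, so no reading is drawn from that. The median of the list was 0.40.

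Of 11 known BMP-SMAD target genes 6 were tested, with 1 higher and 2 lower, beside 22.2% and 22.1% of all tested entries. HEY1 rose from 6.44 ± 0.202 to 14.8 ± 0.127 CPM (log2 fold change 1.20), while ATOH8 fell from 5.17 ± 0.466 to 1.55 ± 0.235 CPM (−1.74) and RUNX2 had −0.41. Of the ID genes, which report BMP signaling in many cells, ID1 (−0.07) and ID2 (−0.21) were not called, and ID3 and ID4 were at 0 on their chromosomes. ID3 reads lay on an alternate contig copy instead, with 3, 5 and 6 in control cells and 34, 28 and 198 with TGF-β1. The groups did not overlap, but the third TGF-β1 library stood apart. The copy had a log2 fold change of 4.27 ± 1.34 (SE) and was not called (edgeR, adjusted p = 0.0634). The median over the 6 tested genes was −0.14, and it leaves the ID3 copy out. With entries of one name summed, 7 genes of the list were tested and again 3 were called.

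Convertases cut BMP and GDF precursors to their active form, and tolloid proteases cut chordin. Of 7 such genes 5 were tested, of which 3 were higher and 2 were not called by edgeR. Among all tested entries 22.2% were higher. FURIN rose from 45.2 ± 1.32 to 134 ± 8.59 CPM (SD, n = 3 each; log2 fold change 1.57) and TLL1 from 12.0 ± 0.941 to 37.5 ± 4.56 CPM (1.65). BMP1, a tolloid protease despite its name, was the other gene called, and PCSK7 and TLL2 were not. The median of the list was 0.62.

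**Figure D4:**
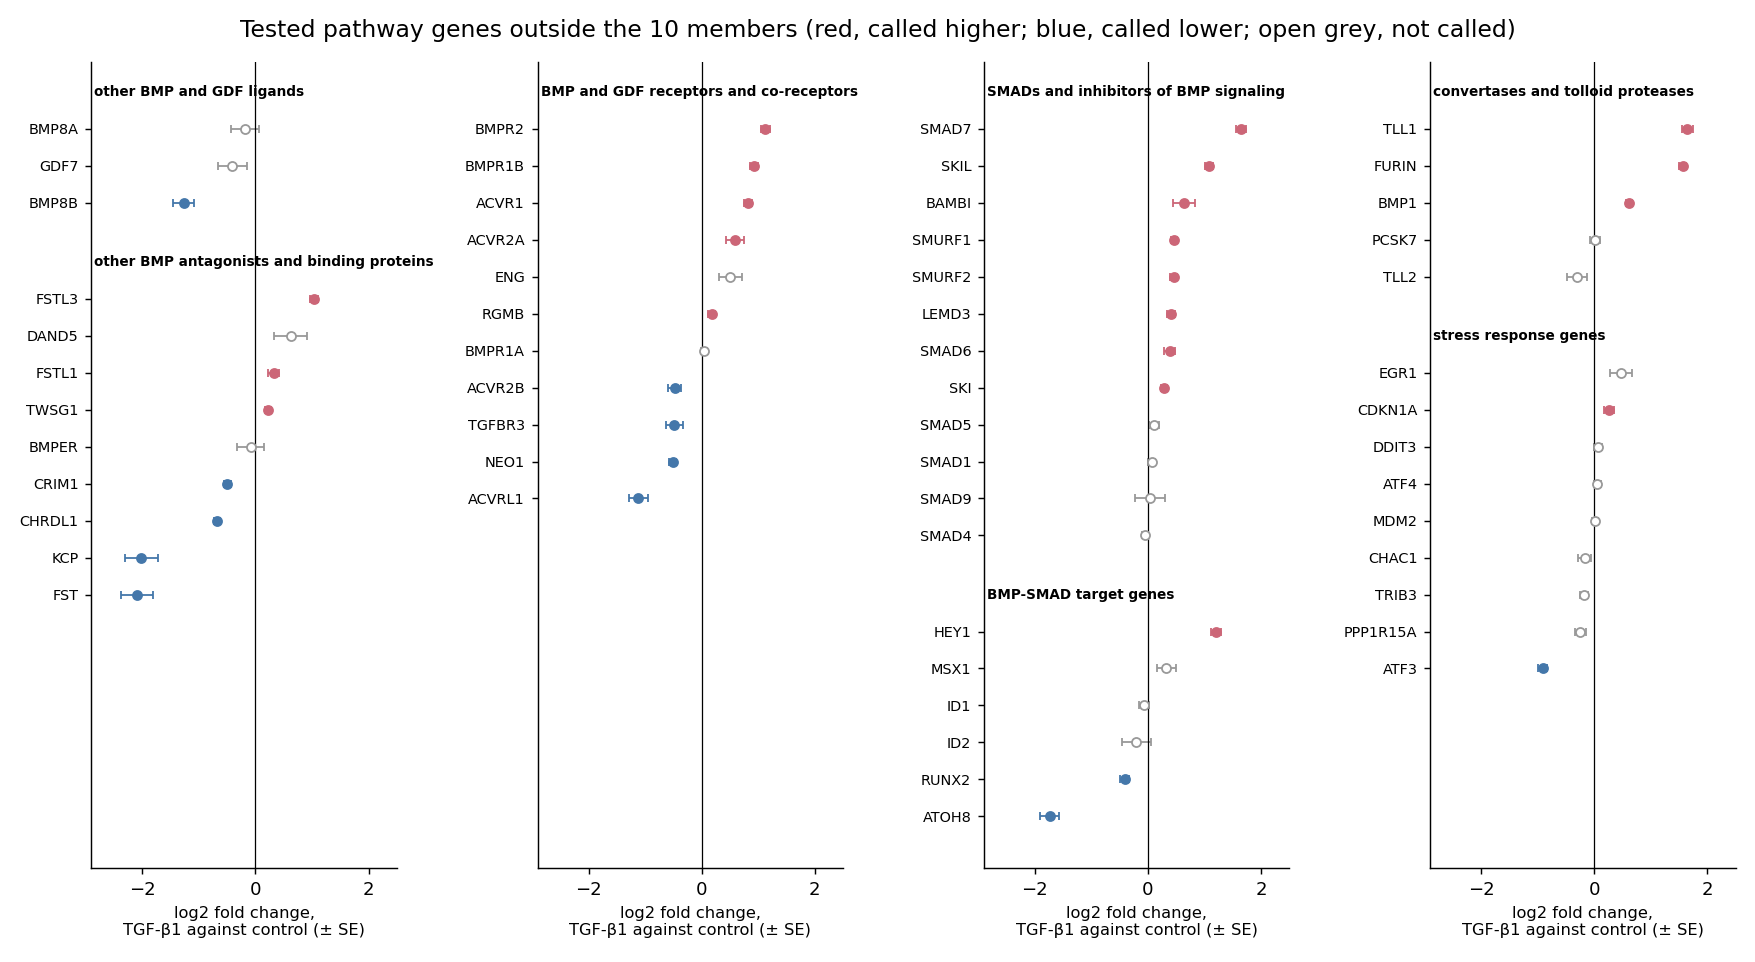
Log2 fold change of TGF-β1 against control (horizontal axes) for each tested gene of the 7 pathway lists, with SE as bars. Red points were called higher, blue points lower and open grey points not called by edgeR at an adjusted p under 0.05. The SMAD and inhibitor list and the convertase list hold red points only among their called genes, and the antagonist list holds both colours.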

How the data were processed

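Per the labels, poly(A) RNA of HK-2 cells was captured on oligo(dT) beads and reverse transcribed with random hexamers. The submitters' processing notes name CASAVA, featureCounts 2.0.1, DESeq2 1.16.1 and the build hg38. The aligner and the strand setting are not given in the sources used here. The authors deposited 1 table per library, with raw counts per gene and with TPM and FPKM values that the authors computed. The deposited TPM recompute from counts and lengths within 3.57e-06 and were used for levels between genes, and FPKM was only checked in the same way. Each table listed 42095 entries. Tests and library sizes omitted 598 loci with no gene name, 0.396% to 0.464% of each library, and 7 broken records per table were rejoined.

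Raw counts of all named entries were filtered with filterByExpr (minimum count 10), scaled by TMM and compared with the quasi-likelihood F test of edgeR 4.0.16 in R 4.3.3, two-sided, with Benjamini-Hochberg adjustment over 14860 entries. The SE is the log2 fold change divided by the root of F, and CPM uses the TMM-scaled library size. Genes under the filter were compared by exact permutation of CPM and by exact binomial intervals of summed reads, which cover counting error only. Alternatives were DESeq2 1.42.0, other scalings and filters, a replicate block, each library left out in turn and, added after seeing the data, entries of one name summed. The code was tested on simulated data.

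The members and gene lists were chosen with earlier results of these data known. Named were all members, the 2 largest called rises and falls at a mean of at least 1 CPM in each of 7 lists, whole receptor, SMAD and ID groups, and overlapping or nearest tested genes within 200 kb. One gene of the stress response list is not reported here.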

Additional observations from a re-analysis of the deposited data

Results flagged for a closer look

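GREM1 gave a signal in data outside the primary-chromosome entries. Its copy A, on an alternate contig, had a log2 fold change of 0.83 (SE 0.09, adjusted p = 2.6e-05 by edgeR), with 219 to 253 reads in control cells and 374 to 482 with TGF-β1. Copy B, on another alternate contig, had a log2 fold change of 1.20 (SE 0.35, adjusted p = 0.0163 by edgeR), with 8 to 9 reads in control cells and 10 to 25 with TGF-β1. The chromosome 15 entry had 0 to 4 reads per library and was not tested. The part of the counting step in this split was not tested.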

How the results depend on the processing

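A mean of at least 50 counts left 3 members other than GDF6 to test and 2 members called in place of 4, left 0 other BMP and GDF ligands to call in place of 1 because none was tested, and called 4 stress response genes in place of 2. The log2 fold change of GDF6 was 2.85 with library sizes from total counts only and 2.93 at a mean of at least 50 counts. Total counts only shifted the median of all tested entries by −0.108 and called 2134 entries higher and 4590 lower, and GDF11 lost its call there and without the second control or the third TGF-β1 library. With a replicate block 6790 entries and 4 members were called, and the numbers were not taken to pair libraries, since correlations of deviations for libraries of one number were 0.111, −0.0117 and 0.0762. Without 1 library, 5333 to 7196 entries, 3 to 4 members and 1 to 3 stress response genes were called. Summing the entries of one name, added after seeing the data, called 5 members, GREM1 being the addition. GDF15 stayed between −2.72 and −2.50, BMP4 between −2.04 and −1.83 and NOG between 1.34 and 2.00, each called under every alternative that tested it. At this depth no change could be shown for BMP6, BMP7 and CHRD.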
